A study of Mus musculus with 10 samples.

Results

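Egfr encodes the epidermal growth factor receptor, and this report follows its transcript in mouse liver in which SREBP activity had been raised by a transgene or in which SCAP had been lost. The array carries 1 probe set (111476_at) whose annotation gives exactly the symbol Egfr, of 12411 non-control probe sets, and it was read on all 10 arrays. Egfr was chosen from its own readings on these same arrays, with SREBP raised and with SCAP lost, so its levels and changes are given as a description, with standard errors but no test.

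The receptor is a tyrosine kinase of the ErbB family. A ligand such as EGF, TGF-alpha or HB-EGF makes it pair with itself or with another ErbB receptor, its tail is phosphorylated, and adaptors carry the signal to the Ras-MAPK and PI3K-Akt pathways, while ubiquitin ligases and sorting proteins remove the receptor from the surface. Hepatocytes are rich in it, and it takes part in liver regeneration. SREBPs are transcription factors that raise genes of sterol and fatty acid synthesis, and SCAP is the escort protein without which their precursors are not activated.

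Livers of male mice were studied in 5 groups, each a pool of RNA from 5 mice that was hybridised to 2 Affymetrix U74 version 2 arrays of chip B. TgSREBP-1a mice carried human SREBP-1a in its active nuclear form, overexpressed, and TgSREBP-2 mice human SREBP-2 in that form. They and their wild type littermates were 12 to 16 weeks old, and for 2 weeks their diet was high protein/low carbohydrate, which raises the nuclear SREBPs of the transgenes. Scap-/- mice carried the inducible Cre recombinase MX1-Cre, and they and their wild type controls were 10 to 12 weeks old, ate Teklad chow and had 4 injections of polyinosinic-polycytidylic acid, with livers taken 14 days after the last. The sources used here do not give the promoter of the transgenes. MX1-Cre answers to interferon, so it can act in other cells of the liver as well as in hepatocytes. Since a pool was hybridised to both arrays of its group, every standard error and p-value below measures the spread between hybridisations and not that between mice.

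Values are deposited log2 expression values, on which a difference of 1 is a 2-fold change. Duplicate arrays correlated at 0.9871 to 0.9944 over all probe sets. In the Scap study each array was closer to an array of the other group than to its own duplicate, and the second TgSREBP-2 array was closer to the second array of its wild type controls. The highest value on that TgSREBP-2 array was 12.2, against 12.9 to 13.4 on the other 9. The probe set at the top of every array was that of Apoa1, the main protein of high density lipoprotein and a product of hepatocytes, as the liver label calls for. Scap itself, the deleted gene, read 7.94 and 7.75 in Scap-/- liver and 9.24 and 8.89 in wild type liver of that study, without overlap. These are readings of its brighter probe set. The other Scap probe set, at 3.57 on average, changed by 0.12 in Scap-/-.

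The region in front of the gene is shown beside that of Insig1, a known SREBP target whose product holds SCAP back in the endoplasmic reticulum, so that their motifs can be compared. Both sequences are the 250 bases before the annotated start, from RefSeq on build GRCm38.p6, 5′ to 3′ on the plus strand. Capitals mark matches on either strand to any of 6 motifs, namely the sterol regulatory element TCACNCCAC, the E-box CACGTG, the GC box GGGCGG, the CCAAT box CCAAT, the TATA box TATAAA and the STAT element TTCNNNGAA. The first is Egfr (chr11:16751953-16752202) and the second Insig1 (chr5:28071162-28071411).
Egfr: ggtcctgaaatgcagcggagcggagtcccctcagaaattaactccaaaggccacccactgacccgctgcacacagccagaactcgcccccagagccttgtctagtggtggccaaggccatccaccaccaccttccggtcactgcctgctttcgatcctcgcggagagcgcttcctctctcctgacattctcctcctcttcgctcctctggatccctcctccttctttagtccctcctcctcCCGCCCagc
Insig1: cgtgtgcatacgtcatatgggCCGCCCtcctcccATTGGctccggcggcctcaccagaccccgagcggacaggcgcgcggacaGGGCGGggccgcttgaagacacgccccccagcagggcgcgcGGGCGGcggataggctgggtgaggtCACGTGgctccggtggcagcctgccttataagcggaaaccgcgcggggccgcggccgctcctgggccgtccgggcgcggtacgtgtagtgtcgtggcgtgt

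The Egfr sequence held 1 match, a GC box on the minus strand that begins 9 bases before the start, and none to the other motifs. The Insig1 sequence held 3 GC boxes, 1 CCAAT box and 1 CACGTG. Of 32851 such upstream sequences, 32.7% held a GC box, 33.9% a CCAAT box, 12.4% a TATA box, 7.02% the STAT element, 6.02% CACGTG and 1.05% the sterol regulatory element. The absence of a match says only that these letters are not in this window: of 32 upstream sequences of 25 genes on the list of SREBP pathway and target genes, only that of Hmgcs1 held TCACNCCAC. The Egfr sequence was 60.8% G and C, against a median of 52.4% over all.

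Egfr was lowest in TgSREBP-1a liver. It read 6.37 and 6.17 on the TgSREBP-1a arrays, 8.05 and 8.21 on the TgSREBP-2 arrays, and 8.92 and 8.59 on the wild type arrays beside them. In the Scap study it read 7.94 and 7.35 with SCAP lost and 8.64 and 8.08 in wild type liver. Both TgSREBP-1a arrays lay below all 8 others, and no array of a transgenic line overlapped the wild type arrays of its study. The Scap-/- and wild type arrays did not overlap either, but the duplicates of each lay nearly as far apart as the groups.

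**Figure D1:**
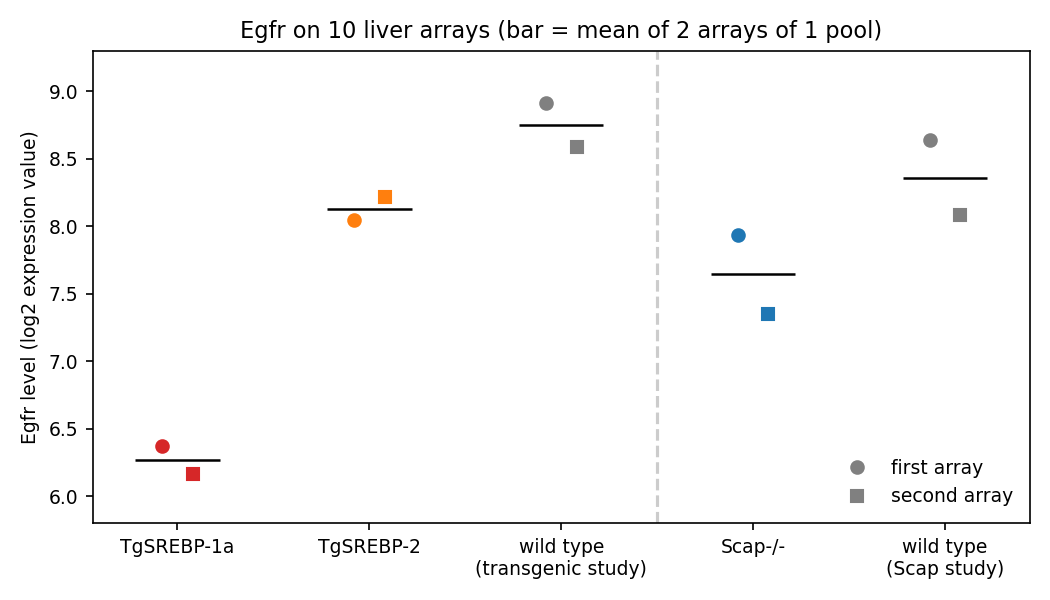
Egfr level (log2 expression value, vertical axis) on each of the 10 arrays, by group. Circles are first arrays, squares second arrays and bars the mean of the 2 arrays of a pool, and the dashed line parts the studies. The TgSREBP-1a arrays at 6.37 and 6.17 lie below all others, and in the Scap study the first array of each group lies above the second.

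As means of 2 arrays, the order of the groups was 8.75 ± 0.23 (SD) in wild type liver of the transgenic study, 8.36 ± 0.39 in wild type liver of the Scap study, 8.13 ± 0.12 in TgSREBP-2, 7.64 ± 0.42 in Scap-/- and 6.27 ± 0.15 in TgSREBP-1a. The wild type pools overlapped each other, and the wild type arrays of the Scap study overlapped TgSREBP-2, so these neighbours did not differ beyond their spread. TgSREBP-2 and Scap-/- were parted by only 0.11 between their nearest arrays, less than the 0.59 between the Scap-/- duplicates. The step from Scap-/- down to TgSREBP-1a, 0.98 between the nearest arrays, exceeded the distance between duplicates in any group. Groups of different studies also differ in diet, age and injections.

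In TgSREBP-1a liver, Egfr stood 2.48 ± 0.22 (standard error) lower than in wild type on the log2 scale, so that 17.9% of the wild type level was left (5.58-fold lower). The nearest arrays of the groups were 2.21 apart. Only 9 of 12411 probe sets, Egfr among them, fell by at least as much. Changes of nearly the same size were those of Sult2a8 (-2.53), a liver sulfotransferase, and Aox3 (-2.39), an aldehyde oxidase. Calls needed 1.5-fold or more together with an adjusted p below 0.05, and 2.18% of all probe sets were called in this comparison.

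The fall was far smaller with SREBP-2. Egfr stood 0.62 ± 0.22 lower in TgSREBP-2 than in wild type (1.54-fold), with 0.37 between the nearest arrays, and 59 probe sets fell by at least as much. Set directly against TgSREBP-2, TgSREBP-1a was lower by 1.86 ± 0.22 (3.63-fold), with 1.67 between the nearest arrays. The comparisons with wild type share their wild type arrays, while this one does not use them. In all, 0.5% of probe sets were called in TgSREBP-2 against wild type and 1.86% between the lines.

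Loss of SCAP did not move Egfr the other way. Egfr stood 0.71 ± 0.22 lower in Scap-/- than in its wild type pool (1.64-fold), with 0.14 between the nearest arrays, and 85 probe sets fell by at least as much. Without the second Scap-/- array the difference was -0.42, and without the first -1.01. Here 0.274% of probe sets were called. The standard error of Egfr, 0.22, was wider than the median of 0.12 over all probe sets, and most of its spread came from the Scap study.

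Between the wild type pools the Egfr arrays overlapped. Egfr was 0.39 ± 0.22 higher with the transgenic study's controls than with those of the Scap study, and with 1 array left out in turn the difference ran from 0.11, without the second array of the Scap study's pool, to 0.67, without the first. In that comparison 0.508% of probe sets were called.

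Egfr thus stood lower with SREBP-1a raised and with SCAP lost, which most SREBP targets did not. On the list of SREBP pathway and target genes, 19 of 35 were measured. Of these, limma called 16 higher and 0 lower in TgSREBP-1a (median log2 change 1.64), and 13 higher and 0 lower in TgSREBP-2 (median 1.36). In Scap-/-, 0 were called higher and 13 lower (median -1.19), and these 13 include Scap itself, the deleted gene. Over all probe sets 2.18%, 0.5% and 0.274% were called in these comparisons, and the median changes were -0.02, -0.02 and 0.02. The largest calls included Fasn, the fatty acid synthase, at 2.83 ± 0.16 in TgSREBP-1a and, of the cholesterol pathway in TgSREBP-1a and in TgSREBP-2, Pmvk (2.98 and 2.85), Idi1 (1.61 and 2.79) and Hsd17b7 (1.64 and 3.02). In Scap-/-, Pmvk, Idi1 and Hsd17b7 fell, with changes of -2.20, -2.26 and -2.39, while Fasn changed by -0.61 ± 0.16 without passing (limma, adjusted p = 0.34). The Pmvk values are those of its brighter probe set. Its other probe set, at 4.63 on average, gave -0.09 in TgSREBP-1a, -0.20 in TgSREBP-2 and 0.21 in Scap-/-. With 1 of the 4 arrays left out in turn, the Hsd17b7 call ended in 3 of 4 fits in TgSREBP-1a and in 2 of 4 in Scap-/- (adjusted p up to 0.20 and 0.16), and the Pmvk call ended in Scap-/- without the second Scap-/- array (adjusted p = 0.087). Insig1 read 8.62 and 8.54 in TgSREBP-1a, then 7.72 and 8.11 in TgSREBP-2, against 5.62 and 5.47 in wild type. It read 4.53 and 4.12 in Scap-/- and 7.26 and 6.45 in wild type there. Insig1 was above wild type in both transgenic lines and below it in Scap-/-, whereas Egfr was below wild type in all 3. For Egfr the difference was large only in TgSREBP-1a, at -2.48 ± 0.22. It was -0.62 ± 0.22 in TgSREBP-2 and -0.71 ± 0.22 in Scap-/-. Egfr was given no test, so no call stands behind its differences.

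By size of change alone, with no test, 24 probe sets fell by at least 1.5-fold in both TgSREBP-1a and Scap-/-, comparisons that share no array. They made up 16.8% of the 143 that fell so far in TgSREBP-1a and 17.4% of the 138 in Scap-/-. Those 143 and 138 were out of 12411 probe sets in all. Another 42 rose in TgSREBP-1a and fell in Scap-/-, 2 rose in both, and 1 fell in TgSREBP-1a and rose in Scap-/-. Beside Egfr, those lower in both included Sult2a8, Ugt2b1, Hsd17b6, Slc17a2, Tdo2 and, on 3 probe sets, Deptor, an inhibitor of mTOR. The pancreatic enzymes Cpb1 and Cela3b led that set.

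**Figure D2:**
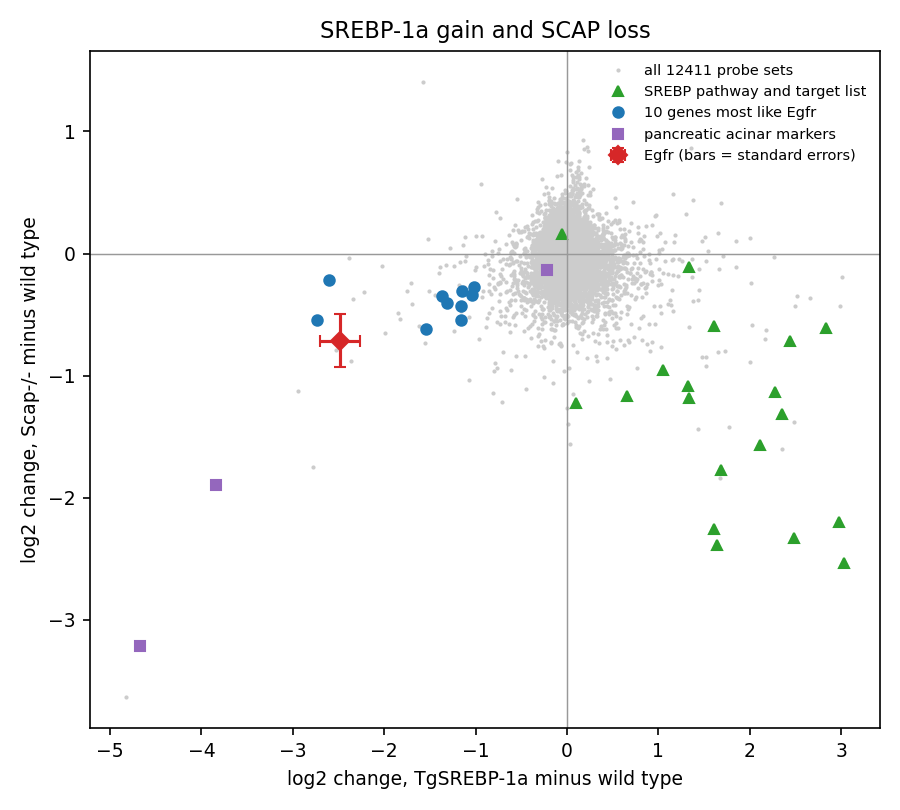
Log2 change in TgSREBP-1a against wild type (horizontal axis) and in Scap-/- against its own wild type (vertical axis), 1 point for each of 12411 probe sets (grey). Green triangles are measured SREBP pathway and target genes, blue circles the 10 genes most like Egfr, purple squares pancreatic acinar markers and the red diamond Egfr with standard errors. Egfr lies at -2.48 and -0.71, lower left, while most green triangles lie lower right.

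The next question was whether the genes around the receptor moved with it. On 9 lists from receptors and ligands to immediate early genes, 64 of 179 genes other than Egfr were measured. Of these, limma called 1 (1.56%) in TgSREBP-1a against wild type, where 2.18% of all probe sets were called, and 0 in the other 4 comparisons. A count this small cannot be told apart from that share. At an unadjusted p under 0.05, limma gave 9 in TgSREBP-1a, 0 in TgSREBP-2, 8 in Scap-/-, 12 between the transgenic lines and 6 between the wild type pools. The share of all probe sets at that threshold was not counted. These and later counts at an unadjusted p therefore cannot be set against the whole array. The median changes were 0.05 in TgSREBP-1a, -0.02 in TgSREBP-2 and 0.00 in Scap-/-, near those of all probe sets. No gene of the lists fell as far as Egfr in TgSREBP-1a, the lowest being -0.72.

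The other receptors of the family, Erbb2, Erbb3 and Erbb4, were not analysed here. Of 11 ligands 2 were measured. Hbegf, the membrane-anchored heparin-binding ligand, read 4.29 and 4.40 in TgSREBP-1a, 4.33 and 4.31 in TgSREBP-2, against 4.37 and 4.25 in wild type. In the Scap study Hbegf read 4.34 and 4.20 in Scap-/- and 4.31 and 4.26 in wild type. Its arrays overlapped in all of these comparisons. All readings of Hbegf lie below the array medians of 5.625 to 5.662, so that its lack of change says little. Nrg4, a ligand of the receptor ERBB4, read 8.62 and 8.73 in TgSREBP-1a, 8.29 and 8.28 in TgSREBP-2, against 8.45 and 8.34 in wild type. In the Scap study Nrg4 read 8.23 and 7.87 in Scap-/- and 8.01 and 8.09 in wild type. The TgSREBP-1a arrays were the highest for Nrg4, but its change of 0.28 ± 0.12 did not pass (limma, adjusted p = 0.44).

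Of 10 genes that free ligands from the membrane, 2 were measured and 0 called by limma in any comparison. The metalloprotease gene Adam15 changed by -0.03 ± 0.21 in TgSREBP-1a and Rhbdf2, whose product guides ADAM17, by 0.21 ± 0.10. Of 26 genes that restrain the receptor, 15 were measured, among them the ubiquitin ligases Cbl and Cblb and the Sprouty genes Spry1 and Spry2. None was called by limma in any of the 5 comparisons, and 3 had an unadjusted p under 0.05 in TgSREBP-1a. Their changes there ran from -0.49 (Socs4) to 0.41 (Ptprj, a receptor phosphatase), with a median of 0.03. The other probe sets of Socs4 gave -0.06 and -0.18. Socs4 and its relative Socs5 encode adaptors that promote breakdown of the receptor, and Socs5 changed by 0.01.

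Of 21 adaptors and direct partners 9 were measured and 0 were called by limma. Grb14, an adaptor that binds the insulin receptor, read 7.03 and 6.80 in TgSREBP-1a, 7.15 and 7.23 in TgSREBP-2, against 7.81 and 7.46 in wild type. Its arrays did not overlap those of wild type, and its change of -0.72 ± 0.22 in TgSREBP-1a did not pass (limma, adjusted p = 0.19), but did with a replicate block for hybridisation number (adjusted p = 0.023) and with only the 4 arrays compared in the fit (adjusted p = 0.014). Ptpn11, which encodes the phosphatase SHP2, differed between the transgenic lines by 0.74 ± 0.27 on its brighter probe set and 0.30 on the other (limma, adjusted p = 0.23 for the brighter).

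Further down the pathway, 7 of 23 Ras-MAPK genes and 10 of 24 PI3K-Akt genes were measured, and limma called 0 of them in each comparison. In TgSREBP-1a their changes ran from -0.08 to 0.30 and from -0.15 to 0.41, with Pik3r1, the regulatory subunit of PI3-kinase, at the upper end. Of 36 genes of endocytosis and sorting 12 were measured and 0 called by limma. The largest change among them was that of Snx1, a sorting nexin of endosomes, at 0.51 ± 0.13 in TgSREBP-1a (limma, adjusted p = 0.091), and its other probe set gave 0.10.

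The single call fell among immediate early genes, of which 7 of 25 were measured. Klf6, a zinc finger transcription factor induced by growth signals, read 6.46 and 6.35 in TgSREBP-1a, 5.74 and 5.90 in TgSREBP-2, against 5.51 and 5.84 in wild type. The TgSREBP-1a arrays lay above all others of that study. Klf6 rose by 0.73 ± 0.16 in TgSREBP-1a (limma, adjusted p = 0.042), and the call ended when any 1 of the 4 arrays was left out (adjusted p between 0.067 and 0.38). In Scap-/- the 7 genes had a median change of 0.39, with 0 called by limma and 3 at an unadjusted p under 0.05. That median is the change of Fosl2 on its brighter probe set, and its other probe set gave 0.05. Srf gave 0.52 on its brightest probe set and 0.21 and -0.16 on the others, and Dusp4 gave 0.19 and 0.08. The median thus depends on the choice of probe set. Dusp5, a phosphatase that switches off ERK and is itself induced by it, read 7.28 and 7.30 in Scap-/- and 6.64 and 6.87 in wild type. Its change of 0.53 ± 0.11 did not pass (limma, adjusted p = 0.12). Dusp6, which acts likewise, changed by -0.06 in Scap-/- and 0.08 in TgSREBP-1a.

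**Figure D3:**
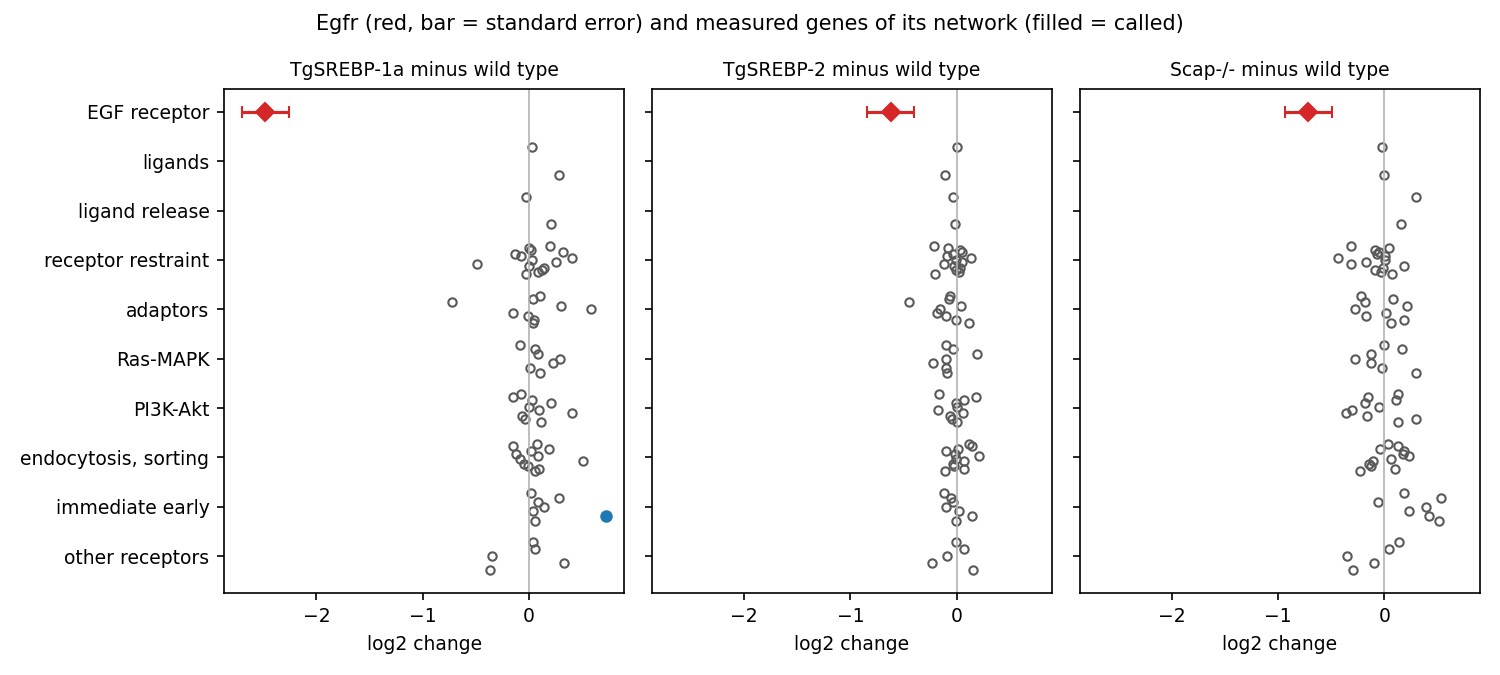
Log2 change (horizontal axis) of Egfr (red diamond, bar = standard error) and of each measured gene of its network and of other receptors (circles, 1 row for each list) in TgSREBP-1a, in TgSREBP-2 and in Scap-/-, each against wild type of its study. Filled circles were called, here only Klf6 at 0.73 in TgSREBP-1a. Egfr at -2.48 in TgSREBP-1a lies apart from all the circles, which range from -0.72 to 0.73 there.

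Of 29 other growth factor and cytokine receptors 5 were measured, and 0 were called by limma in any comparison, with 2 at an unadjusted p under 0.05 between the transgenic lines and 0 elsewhere. Met, the receptor of hepatocyte growth factor, read 6.79 and 6.44 in TgSREBP-1a, 7.19 and 7.09 in TgSREBP-2, against 7.14 and 6.82 in wild type. Its TgSREBP-1a arrays were the lowest of that study, with a change against wild type of -0.37 ± 0.18 (limma, adjusted p = 0.53). Insr, the insulin receptor, changed by -0.34 ± 0.19 in TgSREBP-1a on its brightest probe set, and its other probe sets gave -0.02 and -0.27.

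The growth hormone axis was listed because growth hormone is known to raise Egfr in mouse liver. Of 28 genes 6 were measured. Limma called 1 lower in TgSREBP-1a and 1 in TgSREBP-2, in each case Moxd1, a monooxygenase-like gene. Of all probe sets, 2.18% and 0.5% were called in these comparisons. At an unadjusted p under 0.05, limma gave 4 in TgSREBP-1a, 2 in TgSREBP-2 and 1 in Scap-/-. It gave 2 between the lines and 3 between the wild type pools. Moxd1 read 6.53 and 6.43 in TgSREBP-1a, 6.48 and 6.48 in TgSREBP-2, against 7.79 and 7.81 in wild type. Its changes of -1.32 ± 0.11 and -1.32 ± 0.11 were alike in the lines (limma, adjusted p = 7.9e-05 and 0.00041). Between the wild type pools Moxd1 was the 1 gene of the list called, 0.60 higher in the transgenic study (limma, adjusted p = 0.04), and the call ended when any 1 of the 4 arrays was left out (adjusted p between 0.076 and 0.35). Igf1, the growth factor made by liver under growth hormone, changed by -0.56 ± 0.23 in TgSREBP-1a on its brighter probe set (limma, adjusted p = 0.41). In TgSREBP-2 that probe set changed by -0.02 ± 0.23. The other probe set of Igf1 gave 0.17 in TgSREBP-1a and -0.32 in TgSREBP-2. Stat5b, which carries the growth hormone signal to the nucleus, changed by -0.35 ± 0.12 in TgSREBP-1a (limma, adjusted p = 0.24) and -0.06 ± 0.12 in TgSREBP-2. In the same order, the remaining genes changed by -0.42 and -0.24 (Hnf4a), -0.19 and -0.30 (Socs2, brighter probe set) and 0.08 and 0.27 (Socs3). Any part of growth hormone in the level of Egfr was not tested. The list's median was -0.38 in TgSREBP-1a, -0.15 in TgSREBP-2 and -0.14 in Scap-/-.

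Genes whose pattern was most like that of Egfr were sought among 298 probe sets of named genes whose group means spanned at least 1 on the log2 scale. Likeness was the Pearson correlation with Egfr over the 10 arrays, a description of these arrays only. The 10 highest, with r between 0.91 and 0.96, were Slc17a2, Glyat, Saa4, Cpn2, Oaf, Apon, Ppara, Ppm1k, C8a and Scara5, and the next were Plcxd2 and Rdh16f2 at 0.90 each. Of these, Saa4 and Apon encode apolipoproteins, Cpn2 a subunit of carboxypeptidase N, C8a a chain of a complement component, Glyat an enzyme that joins acyl groups to glycine, and Ppm1k the phosphatase that activates the breakdown of branched-chain amino acids. Ppara is the nuclear receptor of fatty acid oxidation, Scara5 a receptor of ferritin and Slc17a2 a phosphate transporter.

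Within this group the size of the change in each genotype varied from gene to gene, and differences between genes were not tested. Slc17a2 read 4.60 and 4.76 in TgSREBP-1a, 5.89 and 6.05 in TgSREBP-2, against 6.55 and 5.90 in wild type, and in the Scap study 5.45 and 5.20 in Scap-/- and 6.16 and 5.72 in wild type. Its changes of -1.55 in TgSREBP-1a and -0.62 in Scap-/- stood beside -2.48 and -0.71 for Egfr. Saa4 and C8a fell as far as Egfr in TgSREBP-1a, with -2.74 and -2.60. In TgSREBP-2 they changed by -0.32 ± 0.16 and -0.02 ± 0.24, beside -0.62 ± 0.22 for Egfr. In Scap-/- they changed by -0.55 ± 0.16 and -0.22 ± 0.24, beside -0.71 ± 0.22 for Egfr. Ppara changed by -1.15 in TgSREBP-1a, -0.35 in TgSREBP-2 and -0.31 in Scap-/-. All 10 genes were lower in each of these 3 comparisons, which their choice by likeness to Egfr largely fixes.

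The 5 genes most opposite to Egfr, with r between -0.94 and -0.89, were Smox (spermine oxidase), Mfsd12, Rassf6, Nt5e, which makes adenosine from AMP at the cell surface, and Ppp2r5b, a subunit of protein phosphatase 2A. Nt5e read 6.09 and 6.11 in TgSREBP-1a, 4.70 and 4.66 in TgSREBP-2, against 4.36 and 4.44 in wild type. In the Scap study Nt5e read 4.86 and 4.66 in Scap-/- and 4.92 and 4.64 in wild type. Its TgSREBP-1a arrays lay above all 8 others, and its Scap-/- arrays lay within the range of the wild type arrays. All 5 stood 0.98 to 1.70 higher than wild type in TgSREBP-1a, and their changes were -0.03 to 0.28 in TgSREBP-2 and -0.02 to 0.32 in Scap-/-.

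**Figure D4:**
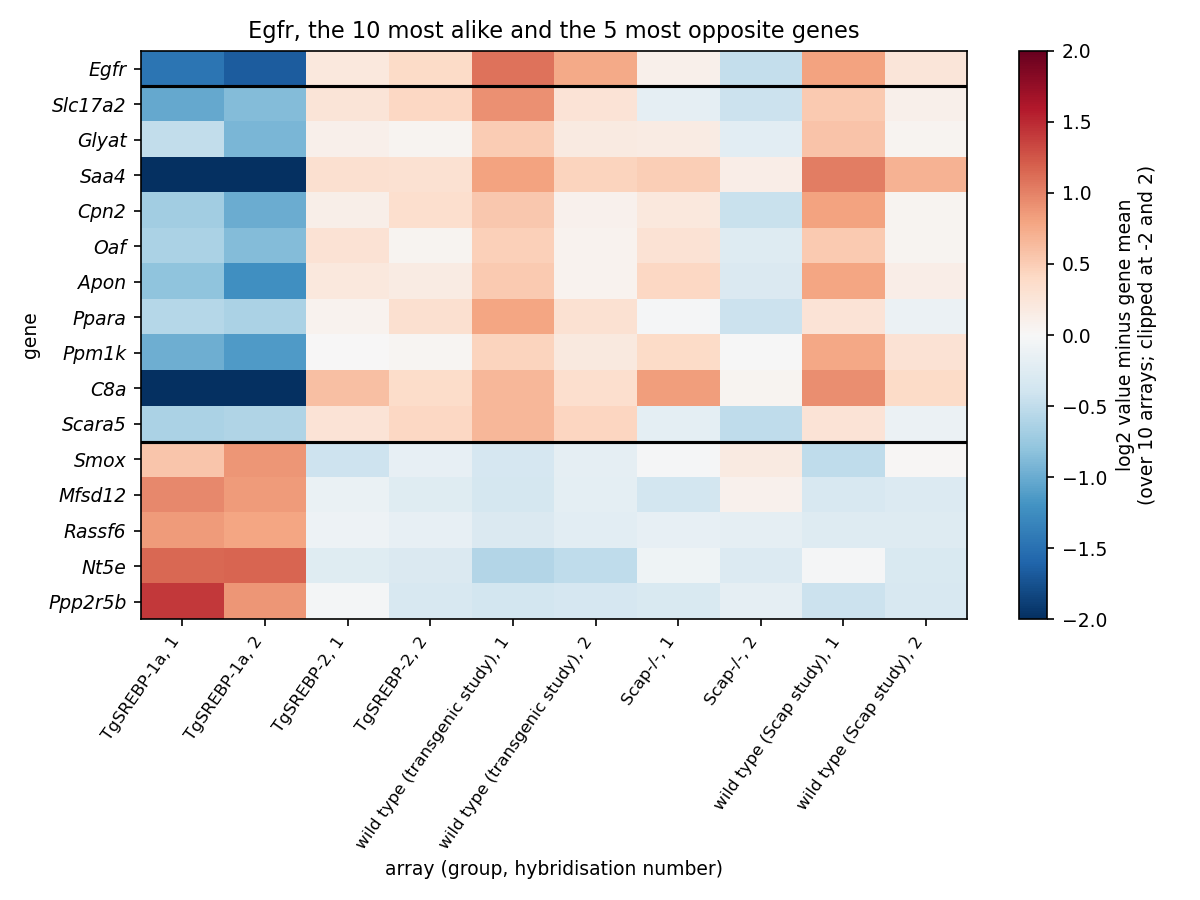
Log2 value minus the gene's mean over the 10 arrays (colour, clipped at -2 and 2) for Egfr, the 10 most alike genes and the 5 most opposite genes (rows) on each array (columns, by group and hybridisation number). The TgSREBP-1a columns are the lowest for Egfr and the alike genes and the highest for the opposite genes, and first arrays of the wild type and Scap-/- pools are higher than second arrays for Egfr and the alike genes.

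Some of this likeness lay between duplicates rather than between groups. The first array stood above the second for Egfr by 0.33 in wild type liver of the transgenic study, 0.59 in Scap-/- and 0.56 in wild type liver of the Scap study, and for all 10 alike genes in each of these pools, which their choice over the same arrays partly fixes. The gap was 0.21 in TgSREBP-1a, with 7 of 10 alike genes higher on the first array, and -0.17 in TgSREBP-2, with 5 of 10. Over all probe sets the first array was the higher for 45.4% to 53.5% in the 5 groups. With the 5 group means in place of the 10 arrays, 7 of the 10 genes were again among the 10 most alike. Of 9 alike genes with an upstream sequence, 3 held a GC box (32.7% of all upstream sequences), 3 the STAT element (7.02%), 2 a CCAAT box (33.9%) and 1 a TATA box (12.4%), and 0 held the sterol regulatory element (1.05%) or CACGTG (6.02%). These genes were chosen by their values, and the counts are a description.

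Neighbours of Egfr on the chromosome were compared as well. Of the 5 protein-coding genes on each side in the order of RefSeq, Cobl, Pom121l12, Plek and Cnrip1 were measured, and 0 were called by limma in any comparison. Their changes in TgSREBP-1a were -0.03, -0.07, 0.15 and 0.11 (limma, adjusted p = 0.99, 0.96, 0.73 and 0.90).

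Markers of cell types moved with Egfr in part. In bulk liver, fewer cells of a type and less RNA per cell cannot be told apart. Of 15 hepatocyte markers 3 were measured, and C8a and C8b fell in TgSREBP-1a, with changes of -2.60 and -2.22, while Apoa1 changed by -0.42 ± 0.26 (limma, adjusted p = 0.72). The summed linear level of these 3 ran from 7739 to 8414 in TgSREBP-1a, from 6046 to 11600 in TgSREBP-2 and from 11500 to 12680 in wild type, and from 10190 to 11780 in Scap-/- and 12150 to 13190 in wild type there. Most of this sum was Apoa1 on every array, and the lowest TgSREBP-2 sum was that of the array on which Apoa1 read 12.2. Of 12 endothelial markers 5 were measured and Lyve1 rose in TgSREBP-1a by 0.64 ± 0.10, and of 10 Kupffer cell markers 2 were measured and Cd163 rose by 0.91 ± 0.15. Over all probe sets 2.18% were called in that comparison. The other endothelial markers, not called there, changed by 0.01 (Stab1), 0.10 (Stab2), 0.22 (Eng) and 0.50 (Ptprb). The other Kupffer cell marker, Timd4, changed by 0.07 there and by -0.09 between the lines. Between the lines Lyve1, Cd163 and the endothelial phosphatase gene Ptprb were higher in TgSREBP-1a by 0.82, 1.21 and 1.02, and the Ptprb call ended in 3 of 4 fits with 1 array left out (adjusted p up to 0.18). Against wild type, the calls of Lyve1 and Cd163 ended without 3 and 4 of the 4 arrays in turn. The summed level of the 5 endothelial markers ran from 843.9 to 905.4 in TgSREBP-1a, against 731 to 780 in wild type. That of the 2 Kupffer cell markers ran from 64.3 to 69.3, against 40.5 to 41.4. Of markers of bile duct (2 of 8), stellate cells (4 of 10), leukocytes (2 of 11) and pericentral hepatocytes (4 of 10), limma called 0 in any comparison, and at an unadjusted p under 0.05 it gave 0 for the first 3 of these lists, and 1 pericentral marker in each genotype against wild type, 0 between the lines and 3 between the wild type pools. Krt7 of the bile duct read 3.14 to 3.35 over the arrays, and the leukocyte markers Cd3e and Ms4a1 read 3.43 to 3.76 and 3.31 to 4.10. Timd4 read 3.29 to 3.78. These readings lie below the array medians of 5.625 to 5.662, so that a lack of calls for these markers says little. The 1 periportal marker of 9, Hsd17b13, was called only between the lines, 1.93 higher in TgSREBP-1a.

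Pancreatic acinar markers, 3 of 13 measured, moved in part with Egfr. Cpb1 and Cela3b fell in TgSREBP-1a and Scap-/-, with changes of -4.67 and -3.21 for Cpb1 and -3.84 and -1.89 for Cela3b. Ctrc changed by -0.22 and -0.13 there (limma, adjusted p = 0.51 and 0.73) and rose by 1.51 in TgSREBP-2. Limma called the falls of Cpb1 and Cela3b and the rise of Ctrc. Of all probe sets it called 2.18% in TgSREBP-1a, 0.274% in Scap-/- and 0.5% in TgSREBP-2. Cpb1, a pancreatic carboxypeptidase, read 5.22 and 4.98 in TgSREBP-1a, 10.6 and 10.2 in TgSREBP-2, against 10.0 and 9.53 in wild type. In the Scap study Cpb1 read 5.86 and 5.50 in Scap-/- and 9.11 and 8.68 in wild type. The sum of the 3 markers ran from 226.6 to 228.4 in TgSREBP-1a, 3217 to 4228 in TgSREBP-2 and 1970 to 2642 in wild type, and from 259.7 to 268.7 in Scap-/- and 911.5 to 1114 in wild type there. It was thus lowest in TgSREBP-1a and Scap-/-, as Egfr was, but higher in TgSREBP-2 than in wild type, where Egfr was lower. Values on this scale do not reach 0, so that no marker can be called absent from them. The part of these markers in the level of Egfr was not tested.

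RefSeq lists 2 transcripts of Egfr, and the sources used here do not say which of them the probe set reads. With 1 probe set there was no other reading on these arrays to set beside it.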

How the data were processed

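The deposited values are log2 expression values that the authors made with RMA (no version given), per the submitters' processing notes. The series' design text also names MICROARRAY SUITE 5.0. RMA equalises the arrays, whose medians were 5.625 to 5.662, and tends to understate large changes. No genome build was named for them.

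Of 12477 probe sets, 66 controls were left out. The platform annotation gave 1 symbol for 10581, several for 178 and none for 1652, and RefSeq (GRCm38.p6) changed 0 of them. In R 4.3.3, limma 3.58.1 (lmFit, then eBayes) took all 10 arrays in a single model with 1 coefficient for each group. P-values are two-sided and Benjamini-Hochberg adjusted over 12411 probe sets. The call rule was an adjusted p under 0.05 and at least 1.5-fold. The number of arrays limits the precision. Of several probe sets for a gene, the brightest on average stood for it. The fit was tested on simulated data with independent noise on each array. Those data held no likeness between arrays of the same hybridisation number and no spread between mice. The run therefore does not vouch for the calls reported here.

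Egfr, the 21 gene lists and the naming rule were chosen with earlier results of these data known, and the neighbouring genes and the motifs after the values were seen. The rule names all measured ligands, up to 5 called genes of each other pathway list, called markers, and the 10 most alike and 5 most opposite genes. Other genes named in the report were picked after their values were seen. Figures used matplotlib 3.10.9 in Python 3.11.15. Alternatives are given in the closing section.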

Additional observations from a re-analysis of the deposited data

How the results depend on the processing

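The direction of the Egfr change was the same under every alternative run. These were a second quantile normalization, centring on array medians, the hybridisation number as a replicate block and each array left out. The block could not change the differences, since every group held a first and a second array. Where the arrays of 2 groups did not overlap, leaving out 1 array could not reverse the direction either. Outside left-out arrays the Egfr changes were -2.52 to -2.48 in TgSREBP-1a, -0.62 to -0.61 in TgSREBP-2 and -0.71 to -0.67 in Scap-/-. With 1 array left out they ran from -2.65 to -2.32, from -0.79 to -0.46, and from -1.01 to -0.42, between the lines from -1.96 to -1.76, and between the wild type pools from 0.11 to 0.67. With 1 Egfr probe set, a mean over its probe sets could not be run.

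With 1 array left out, called probe sets numbered 142 to 193 in TgSREBP-1a, 25 to 124 in TgSREBP-2, 10 to 68 in Scap-/-, 87 to 384 between the lines and 14 to 120 between the wild type pools, and network genes 0 in all of these. With the replicate block 101 were called in TgSREBP-2, 91 in Scap-/- and 145 between the wild type pools, where the reported fit called 62, 34 and 63. In the same fit 2 network genes (Klf6 and Grb14) were called in TgSREBP-1a and 1 (Klf6) between the lines. No label says that a number marks a shared batch. Deviations of same-numbered arrays correlated at 0.41 in the TgSREBP-1a comparison, 0.06 in the TgSREBP-2 comparison and 0.60 in the Scap-/- comparison. With only the 4 arrays compared, 5 were called in Scap-/- and 13 between the wild type pools, with 2 network genes in TgSREBP-1a (Klf6 and Grb14) and 2 between the lines (Klf6 and Ptpn11). Of 150 alternative values 117 counted as unmoved and 33 as moved. Only the Egfr changes could count as reversed, and 0 did. The other values were counts of calls, for which no reversal was defined, and a network count that stayed at 0 counted as unmoved.

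Duplicate hybridisations of pools limit all results to these pools, and duplicates of the Scap study were the farthest apart for Egfr.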

Other observations

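Arrays of the same number gave closely similar differences for Egfr in the Scap study, in which duplicates lay far apart. The first Scap-/- array stood at 7.94 against 8.64 for the first wild type array, a difference of -0.70, and the second stood at 7.35 against 8.08, a difference of -0.73. In TgSREBP-1a against wild type the differences were -2.54 and -2.42. In TgSREBP-2 against wild type they were -0.87 and -0.37. The direction was the same on both arrays in each of these comparisons, which already followed from their arrays not overlapping.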
